A study of Mus musculus with 15 samples.

Results

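The genes described here are the chemokines and the effector chemokine receptors of the mouse: 38 genes, listed by symbol, of the 27179 genes in a deposited count table. The list holds 21 chemokine ligands, 13 receptors that guide effector cells into tissues, Gpr15 among them, and 4 atypical receptors. It was drawn up by gene name and family, though with earlier results of these data known, and every symbol was found in the table. Reads of messenger RNA were counted in 15 bulk libraries of CD4 T cells, 5 each of Tfh (T follicular helper), Th17 and Th1 cells. In all 3 conditions the cells came from mice of the strain B6.Cg-Ifngtm3.1Lky-Il17atm1.1Lky, so the modified Ifng and Il17a reporter alleles named there are shared by every library. Naive CD4 T cells were stimulated in culture on plate-bound anti-CD3 and anti-CD28 for 3.5 days and then sorted. The Tfh cells were sorted as CXCR5+ IL-17A- and the Th1 cells as IFNg+, while the series' design text lists the Tfh gate a second time and names no Th17 gate. The sources used here give neither the cytokines added to each culture nor the age or number of the mice. No label ties a library to its own mouse or culture, so the p-values below measure the spread between these libraries, which may be technical.

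Chemokines are small secreted proteins that bind G protein-coupled receptors on leukocytes and direct their migration along a gradient. Helper T cells exchange the receptors of naive cells for sets that fit the tissue they patrol, and the receptor set is widely used to tell helper subsets apart: CXCR3 for Th1 cells, CCR6 for Th17 cells and CXCR5 for follicular helper cells. Activated T cells also secrete chemokines themselves, such as CCL3, CCL4 and CCL5, which recruit other leukocytes, and CCL20, which recruits cells with CCR6. Atypical receptors bind chemokines without G protein signalling and mostly remove them.

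Ccl20, Gpr15, Cxcr6 and Ccr6 were high in both Tfh and Th17 libraries and low in Th1 libraries, and Ccl20 was the ligand with the highest level per length in Tfh and in Th17. Gpr15 averaged 357 ± 39.97 CPM (read counts per 1e+06 counts of a library) in Tfh and 239 ± 15.5 in Th17, against 0.787 ± 0.373 in Th1 (SD, n = 5 each). Ccl3, Ccl5, Cxcr3 and the atypical receptor Ccrl2 were highest in Th1. Between Tfh and Th17, Ccr8, Cx3cr1 and Gpr15 were higher in Tfh, and Ccl3, Ccl4, Ccl20, Xcl1, Ccr3 and Ccr4 were lower in Tfh. All values come from bulk samples, in which fewer cells expressing a gene and less RNA per cell cannot be told apart.

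The libraries held 4.87 to 25.2 M counts (M stands for 1e+06), with a median of 10.5 M, so 3 counts stand for 0.127 to 0.580 CPM in a single library. All 9 CD4 T cell markers passed the low-count filter, and their summed level was 7026 to 9468 CPM in Tfh libraries, 6694 to 7584 in Th17 libraries and 4541 to 5967 in Th1 libraries. Summed markers of myeloid and dendritic cells were 3.27 to 5.24 CPM in Tfh libraries, 3.74 to 7.73 in Th17 libraries and 81.6 to 190 in Th1 libraries. Most of the Th1 value was Batf3, which activated CD4 T cells also express, and without Batf3, Itgax and Itgam the sum in Th1 was 6.17 to 18.5 CPM. S100a8, Siglech and Clec9a had no count in any library, and neither did the NK cell genes Ncr1 and Klra8 or the B cell factor Pax5. The 5 NK markers summed to 0.398 to 2.51, 0.234 to 1.98 and 21.9 to 52.3 CPM in Tfh, Th17 and Th1, and without Klrk1 and Eomes, which T cells share, to 0 in Th1. B cell markers were at 0 to 3.38, 0.847 to 3.48 and 12.8 to 25.03 CPM in that order, gamma-delta T cell markers at 6.57 to 20.3, 4.503 to 8.57 and 20.2 to 45.2, and CD8 markers at 5.22 to 11.3, 6.19 to 16.02 and 7.29 to 26.1. Erythroid markers stayed at 0.980 CPM or less and mast cell markers at 0.127 CPM or less. Lyz2 had no count in the Th1 libraries, while Cd68 averaged 3.20 CPM in Tfh libraries, 3.04 in Th17 libraries and 10.7 in Th1 libraries. The myeloid, NK and B cell sums move with the members that are high in Th1, and their part in those results was not tested.

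Of the 38 genes, 21 passed a filter on low counts and were tested: 9 ligands, 11 receptors and the atypical receptor Ccrl2. A further 13 had too few counts to be tested, and Ccl1, Ccl2, Ccl24 and Cxcl9 had no count in any library, which allows a mean level of up to 0.0187 CPM over the 15 libraries. Between Tfh and Th17, 3 of the 21 were higher and 6 lower, 42.9% in all, where 16.8% of the 12591 genes tested were called, 6.8% higher and 9.98% lower. With a correction for GC content the share of all genes in this comparison was 26.1%, with 10 of the 21 members called. Between Tfh and Th1, 9 were higher and 6 lower, 71.4%, beside 49.3% of all genes, 24.1% higher and 25.2% lower. Between Th17 and Th1, 10 were higher and 6 lower, 76.2%, beside 36.9% of all genes, 19% higher and 17.8% lower. A call is an adjusted p under 0.05 in edgeR's quasi-likelihood test, adjusted by Benjamini-Hochberg over all genes tested. The 5 libraries of one condition lay wholly apart from those of the other for 9, 13 and 16 of the 21 members in the comparisons Tfh with Th17, Tfh with Th1 and Th17 with Th1, where 14.5%, 34.3% and 28.8% of all tested genes did so. The members' median absolute log2 fold change was 0.90, 3.16 and 2.77 in these comparisons, and that of all tested genes 0.33, 0.60 and 0.45. The signed medians of the members were -0.57, -0.25 and 0.39. A member that passed the filter through 1 condition alone was kept because of its level there, which favours finding a difference between conditions. The same filter was applied to all genes. These shares therefore describe the tested members and not the list as a whole.

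**Figure D1:**
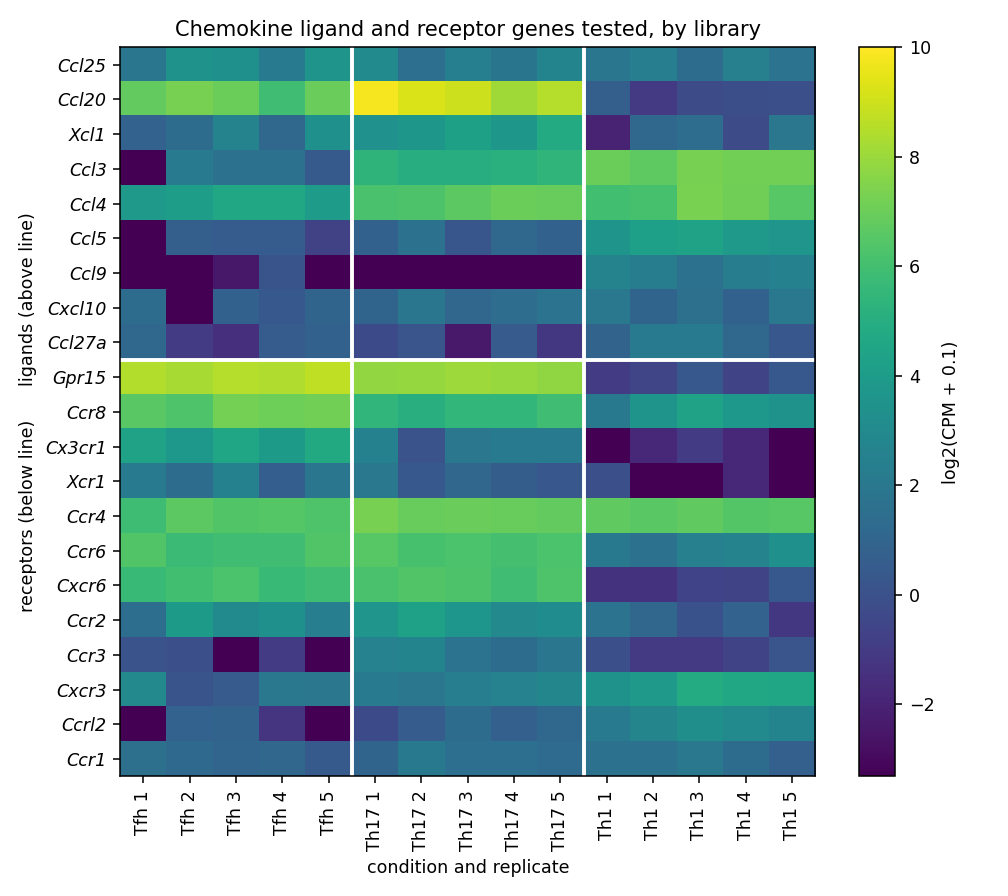
Level of the 21 tested genes in each library, as log2(CPM + 0.1), with Tfh, Th17 and Th1 libraries from left to right and ligands above receptors. Ccl20, Gpr15, Cxcr6 and Ccr6 are high in the 10 Tfh and Th17 libraries and low in the 5 Th1 libraries, and Ccl3, Ccl5, Ccrl2 and Cxcr3 are highest in the Th1 libraries.

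The 250 bases before the annotated start of 6 members that the results turn on are printed here, from RefSeq's GRCm38.p6 table, so that the genes of the Tfh and Th17 group (Ccl20, Gpr15, Cxcr6, Ccr6) can be set beside a pair that is highest in Th1 (Ccl3, Cxcr3). Each is written 5′ to 3′ in the direction of transcription, and capitals mark matches, on either strand, to AGGTCA (the ROR and nuclear receptor core), GGTGTGA (T-box), GGG, any 2 bases and TTTCC (NF-kappaB), TGANTCA (AP-1) and TGCTGA (Maf).
Ccl20 (chr1:83116516-83116765, plus strand): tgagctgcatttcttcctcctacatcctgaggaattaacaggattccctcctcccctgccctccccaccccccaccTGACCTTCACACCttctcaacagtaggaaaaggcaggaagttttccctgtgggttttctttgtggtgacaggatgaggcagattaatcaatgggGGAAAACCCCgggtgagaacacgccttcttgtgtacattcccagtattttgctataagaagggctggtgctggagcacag
Gpr15 (chr16:58718873-58719122, minus strand): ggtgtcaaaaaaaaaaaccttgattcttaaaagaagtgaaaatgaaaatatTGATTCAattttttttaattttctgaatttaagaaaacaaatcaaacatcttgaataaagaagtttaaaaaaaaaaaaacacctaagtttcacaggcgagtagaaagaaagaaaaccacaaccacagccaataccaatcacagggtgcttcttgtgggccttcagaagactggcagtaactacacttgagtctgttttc
Cxcr6 (chr9:123806227-123806476, plus strand): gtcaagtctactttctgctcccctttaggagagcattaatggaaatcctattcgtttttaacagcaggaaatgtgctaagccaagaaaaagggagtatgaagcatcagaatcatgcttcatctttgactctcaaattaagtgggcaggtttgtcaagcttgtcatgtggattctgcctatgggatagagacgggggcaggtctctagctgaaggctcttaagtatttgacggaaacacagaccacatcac
Ccr6 (chr17:8235793-8236042, plus strand): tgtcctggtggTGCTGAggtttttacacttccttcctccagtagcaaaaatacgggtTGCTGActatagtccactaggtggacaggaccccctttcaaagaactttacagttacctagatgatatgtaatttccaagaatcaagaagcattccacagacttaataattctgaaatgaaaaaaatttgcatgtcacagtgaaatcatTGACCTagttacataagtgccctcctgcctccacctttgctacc
Ccl3 (chr11:83649379-83649628, minus strand): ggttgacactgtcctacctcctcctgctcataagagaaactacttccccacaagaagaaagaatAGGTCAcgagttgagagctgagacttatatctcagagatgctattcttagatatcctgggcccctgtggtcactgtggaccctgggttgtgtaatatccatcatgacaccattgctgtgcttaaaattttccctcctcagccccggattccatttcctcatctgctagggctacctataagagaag
Cxcr3 (chrX:101734148-101734397, minus strand): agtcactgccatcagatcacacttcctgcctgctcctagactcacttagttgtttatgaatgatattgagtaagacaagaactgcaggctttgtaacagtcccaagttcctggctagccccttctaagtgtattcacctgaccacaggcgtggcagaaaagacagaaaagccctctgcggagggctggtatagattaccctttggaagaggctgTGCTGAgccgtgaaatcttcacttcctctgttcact
The Ccl20 promoter held TGACCT at 174 to 169 bases before the start, directly followed by TCACACC at 168 to 162, and GGAAAACCCC at 80 to 71. Gpr15 held TGATTCA, Ccr6 held TGCTGA at 2 places and TGACCT once, Ccl3 held AGGTCA and Cxcr3 held TGCTGA. In the Cxcr6 window none of the 5 words was found. Ccr6 has 2 promoters in the table, and the one shown is listed first. Of all 32851 promoters of this length, 14.0% held AGGTCA, 3.33% GGTGTGA, 1.41% the NF-kappaB word, 6.75% TGANTCA and 16.1% TGCTGA. The 31 members with a promoter in the table have 37 promoters, of which 9, 4, 5, 6 and 7 held these words. No printed matches overlap each other, and a match describes letters in these windows and no binding.

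Ccl20 is the ligand of CCR6 and a chemokine known to be made by Th17 cells. Its levels were 113, 154, 128, 61.2 and 125 CPM in the Tfh libraries, 907, 599, 508, 274 and 365 in the Th17 libraries and 1.54, 0.387, 0.763, 0.8303 and 0.852 in the Th1 libraries. All Th17 libraries lay above all Tfh libraries, and all Tfh libraries above all Th1 libraries, where the gene was at 1.54 CPM or less. Ccl20 was 4.56-fold lower in Tfh than in Th17 (log2 fold change -2.19 ± 0.29 SE, edgeR adjusted p = 3.87e-05). It was 138-fold higher in Tfh cells than in Th1 (log2 7.11 ± 0.40, adjusted p = 5.21e-11) and 629.9-fold higher in Th17 than in Th1 (log2 9.30 ± 0.43, adjusted p = 4.84e-12). The Th17 libraries spread from 274 to 907 CPM, in absolute CPM a wider range than that of any other member in Th17. Ccl20 also had the highest mean CPM of the members there. Relative to its level, Cx3cr1 spread more widely in Th17, from 0.953 to 5.62 CPM.

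Ccl3 and Ccl4 encode the MIP-1 chemokines, which activated T cells secrete. Ccl3 was at 0, 4.24, 3.02, 3.09 and 1.28 CPM in the Tfh libraries, 41.1, 31.01, 31.8, 35.2 and 41.7 in the Th17 libraries and 128, 105, 155, 145 and 143 in the Th1 libraries. The 3 conditions did not overlap, with Th1 highest and Tfh lowest, and 1 Tfh library had no Ccl3 count. Ccl3 was lower in Tfh than in Th17 (log2 -3.89 ± 0.36, 14.9-fold, edgeR adjusted p = 1.06e-06), lower in Tfh than in Th1 (log2 -5.79 ± 0.38, 55.5-fold, adjusted p = 3.99e-10) and lower in Th17 than in Th1 (log2 -1.90 ± 0.30, 3.73-fold, adjusted p = 5.8e-05). Ccl4 was at 14.3, 17.4, 24.2, 25.5 and 16.01 CPM in the Tfh libraries, 71.2, 76.8, 101, 129.6 and 121 in the Th17 libraries and 61.7, 70.2, 159, 137 and 93.6 in the Th1 libraries. Every Tfh library lay below every Th17 and Th1 library, while the Th17 and Th1 libraries overlapped. Ccl4 was 5.09-fold lower in Tfh than in Th17 (log2 -2.35 ± 0.27, adjusted p = 9.3e-06) and 5.33-fold lower in Tfh than in Th1 (log2 -2.42 ± 0.27, adjusted p = 6.21e-07). The difference between Th17 and Th1 did not pass the test (log2 -0.07 ± 0.25, adjusted p = 0.865), and whether Ccl3 and Ccl4 differ in that comparison was not tested. RefSeq's gene bodies of Ccl3 and Ccl4 share 755 bases, and the sources used here do not say how reads there were counted.

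Xcl1 encodes lymphotactin, which attracts dendritic cells that carry XCR1. Its levels were 1.74, 2.54, 6.13, 2.19 and 10.1 CPM in the Tfh libraries, 10.8, 13.1, 19.1, 13.3 and 28.1 in the Th17 libraries and 0.1402, 2.13, 2.59, 0.738 and 3.83 in the Th1 libraries. Th17 libraries were the highest and lay apart from both other conditions, while Tfh and Th1 libraries overlapped. Xcl1 was higher in Th17 than in Th1 (log2 3.10 ± 0.57, 8.57-fold, edgeR adjusted p = 0.000271). It was lower in Tfh than in Th17 (log2 -1.86 ± 0.54, 3.63-fold, adjusted p = 0.0218), a call that was lost without Th17 replicate 3 (adjusted p = 0.0524) or 5 (0.0764) and without Tfh replicate 2 (0.0564) or 4 (0.0536). Between Tfh and Th1 it did not pass (log2 1.24 ± 0.56, adjusted p = 0.0751), but passed without Th1 replicate 5 (0.0370) and without Tfh replicate 1 (0.0467) or 4 (0.0497). Xcl1 also passed there in edgeR with a term for the replicate number (0.00728), and with that term and a correction for GC content (0.00759).

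Ccl5, or RANTES, is a ligand of CCR1 and CCR3 and is typical of cytotoxic and Th1 cells. Its levels were 0, 1.55, 1.39, 1.39 and 0.494 CPM in the Tfh libraries, 1.64, 3.07, 1.105, 2.07 and 1.66 in the Th17 libraries and 11.8, 17.99, 20.05, 14.2 and 12.3 in the Th1 libraries. The Th1 libraries lay above all others, and the Tfh and Th17 libraries overlapped at 3.07 CPM or less. Ccl5 was lower in Tfh than in Th1 (log2 -3.90 ± 0.46, 14.96-fold, edgeR adjusted p = 1.09e-06) and lower in Th17 than in Th1 (log2 -3.00 ± 0.42, 8.02-fold, adjusted p = 1.73e-05). Ccl9, a rodent ligand of CCR1, averaged 0.215 ± 0.437 CPM in Tfh and 4.899 ± 1.14 in Th1, and had no count in the 5 Th17 libraries. It was therefore at least 77.7-fold lower in Th17 than in Th1, against a floor of 3 counts over the 5 Th17 libraries, and was called there (adjusted p = 8.27e-05). Between Tfh and Th1 the log2 fold change was -4.30 ± 0.88 (adjusted p = 0.000901), and it was -6.95 without Tfh replicate 4, which held 10 of the 11 Tfh counts. The comparison of Tfh with Th17 did not pass for Ccl9 (adjusted p = 0.0698), and passed in DESeq2 (0.0178) and with a correction for GC content (0.0472).

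The other tested ligands stayed under 10 CPM. Ccl25, which attracts CCR9-bearing cells in the thymus and small intestine, averaged 8.22 ± 3.87 CPM in Tfh libraries, 5.23 ± 2.16 in Th17 libraries and 3.996 ± 1.21 in Th1 libraries. It was called higher in Tfh than in Th1 (log2 1.06 ± 0.38, edgeR adjusted p = 0.0288), although its Tfh and Th1 libraries overlapped, and the call was lost without Th1 replicate 3 (adjusted p = 0.0753) or 5 (0.0674), without Tfh replicate 2 (0.0751), 3 (0.0716) or 5 (0.0907), and with a correction for GC content (0.0518). The call was also lost with a term for the replicate number (0.0510), and with that term and the GC correction (0.0623). Ccl27a, a skin chemokine and ligand of CCR10, averaged 1.17 ± 0.812 CPM in Tfh libraries, 0.703 ± 0.503 in Th17 libraries and 2.73 ± 1.48 in Th1 libraries. Its call, lower in Th17 than in Th1 (log2 -1.96 ± 0.68, adjusted p = 0.0308), was lost without Th1 replicate 2 (0.0826) or 3 (0.0787) and without Th17 replicate 1 (0.0575), 3 (0.0674) or 5 (0.0716). Cxcl10, the interferon-induced ligand of CXCR3, averaged 1.44 ± 0.937 CPM in Tfh libraries, 2.71 ± 0.791 in Th17 libraries and 2.87 ± 1.11 in Th1 libraries and was not called in any of the 3 comparisons. Ccl25 shares 538 exonic bases with Elavl1 on the opposite strand, and the sources used here do not give the strand setting of the counting.

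**Figure D2:**
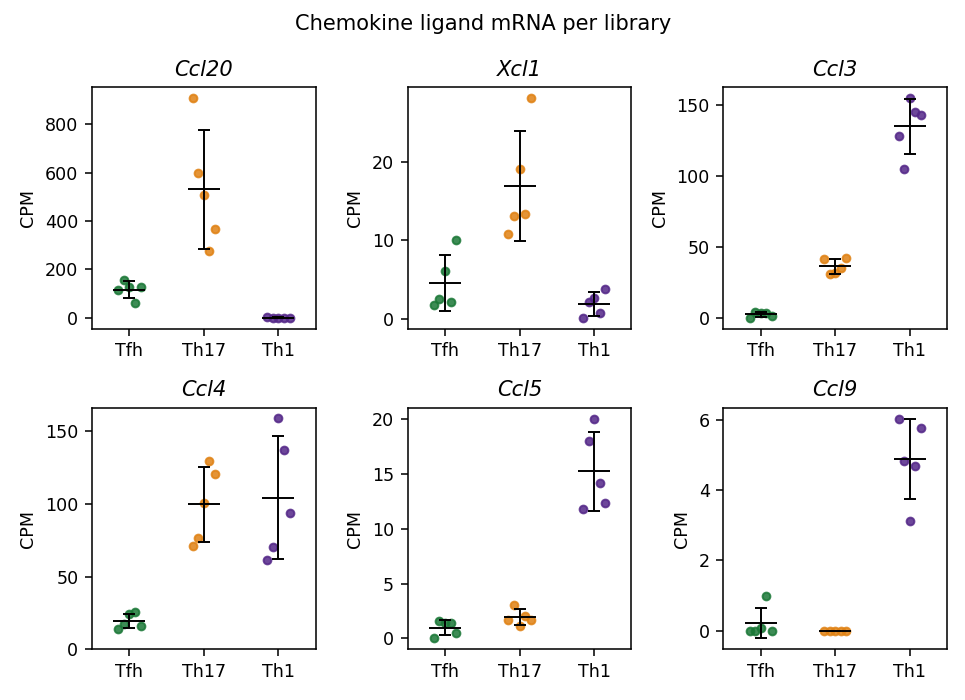
CPM of the main ligands in each library, with Tfh, Th17 and Th1 from left to right, a point for each library, and the mean and SD of the 5 libraries as bars. Ccl20 and Xcl1 are highest in Th17, Ccl3, Ccl5 and Ccl9 in Th1, and Ccl4 is lowest in Tfh.

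Gpr15 is a homing receptor that directs T cells to the large intestine and is used together with the classical chemokine receptors. Its levels were 351, 309, 372, 339 and 416 CPM in the Tfh libraries, 232, 236, 262, 245 and 221 in the Th17 libraries and 0.4205, 0.5802, 1.19, 0.554 and 1.19 in the Th1 libraries. The 3 conditions did not overlap, and the ranges of Tfh and Th17 were close while every Th1 library was at 1.19 CPM or below. Gpr15 was 1.49-fold higher in Tfh cells than in Th17 (log2 0.58 ± 0.15, edgeR adjusted p = 0.011). It was 411-fold higher in Tfh cells than in Th1 (log2 8.68 ± 0.22, adjusted p = 4.99e-15) and 275-fold higher in Th17 than in Th1 (log2 8.11 ± 0.22, adjusted p = 1.94e-14). Gpr15 shares 204 exonic bases with Cpox on the opposite strand.

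Ccr8 is the receptor of CCL1 and is known from skin-homing and regulatory T cells. Its levels were 98.01, 81.2, 147, 135 and 143 CPM in the Tfh libraries, 43.3, 32.7, 45.6, 44.8 and 59.7 in the Th17 libraries and 4.06, 11.6, 20.05, 13.8 and 10.98 in the Th1 libraries. The conditions did not overlap, in the order Tfh, Th17 and Th1 downwards. Ccr8 was 2.67-fold higher in Tfh cells than in Th17 (log2 1.42 ± 0.28, edgeR adjusted p = 0.00154), 9.81-fold higher in Tfh cells than in Th1 (log2 3.29 ± 0.30, adjusted p = 4.66e-08) and 3.67-fold higher in Th17 than in Th1 (log2 1.88 ± 0.29, adjusted p = 4.42e-05). Cx3cr1 encodes the receptor of fractalkine, the product of Cx3cl1, and lies next to Ccr8 on chromosome 9. Its levels were 20.5, 13.4, 22.5, 15.1 and 27.3 CPM in the Tfh libraries, 5.62, 0.953, 3.82, 4.24 and 4.44 in the Th17 libraries and 0, 0.193, 0.424, 0.185 and 0 in the Th1 libraries. They followed the same order without overlap, and 2 Th1 libraries had no count. Cx3cr1 was 5.17-fold higher in Tfh cells than in Th17 (log2 2.37 ± 0.42, adjusted p = 0.000651). Against Th1 the log2 fold changes were 6.53 ± 0.56 for Tfh (adjusted p = 2.12e-08) and 4.16 ± 0.56 for Th17 (adjusted p = 9.84e-06), and 7.45 and 5.07 without Th1 replicate 3, which held 10 of the 14 Th1 counts.

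Cxcr6 is the receptor of CXCL16 and marks tissue-resident and effector T cells. Its levels were 52.2, 62.6, 75.2, 51.8 and 60.9 CPM in the Tfh libraries, 73.3, 83.9, 78.9, 60.97 and 79.03 in the Th17 libraries and 0.2803, 0.2901, 0.551, 0.554 and 1.19 in the Th1 libraries. The Tfh and Th17 libraries overlapped, far above the Th1 libraries. Cxcr6 was 99.97-fold higher in Tfh cells than in Th1 (log2 6.64 ± 0.27, edgeR adjusted p = 5.09e-13) and 124-fold higher in Th17 than in Th1 (log2 6.96 ± 0.27, adjusted p = 5.53e-13). Between Tfh and Th17 the log2 fold change was -0.31 ± 0.19 and did not pass (adjusted p = 0.285). Cxcr6 lies within the body of Fyco1, with no exonic bases found in common. The sources used here do not give the annotation used for counting. Ccr6, the CCL20 receptor that marks Th17 cells, showed the same order. Its levels were 82.2, 53.1, 59.5, 61.2 and 84.9 CPM in the Tfh libraries, 93.4, 69.96, 74.3, 68.3 and 74.6 in the Th17 libraries and 4.06, 3.09, 5.43, 6.18 and 10.4 in the Th1 libraries. Tfh and Th17 libraries overlapped and all lay above the Th1 libraries. Ccr6 was 11.6-fold higher in Tfh cells than in Th1 (log2 3.53 ± 0.26, adjusted p = 2.22e-09) and 12.9-fold higher in Th17 than in Th1 (log2 3.69 ± 0.26, adjusted p = 2.05e-09), with a log2 fold change of -0.16 ± 0.23 between Tfh and Th17 (adjusted p = 0.701).

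Ccr4, the receptor of CCL17 and CCL22 that is used for skin homing, was high in all 3 conditions. Its levels were 57.6, 102, 82.3, 89.7 and 80.5 CPM in the Tfh libraries, 155, 121, 123, 121 and 113 in the Th17 libraries and 108, 96.1, 107, 86.4 and 93.1 in the Th1 libraries. Tfh libraries lay below Th17 libraries and overlapped with Th1 libraries, and Th17 libraries lay above Th1 libraries. Ccr4 was 1.54-fold lower in Tfh than in Th17 (log2 -0.62 ± 0.14, edgeR adjusted p = 0.00569). The log2 fold changes of -0.25 ± 0.14 between Tfh and Th1 (adjusted p = 0.16) and 0.37 ± 0.14 between Th17 and Th1 (adjusted p = 0.0507) did not pass. That between Th17 and Th1 passed in limma-voom (adjusted p = 0.0387), in a fit of these conditions alone (0.0310), scaled by library size alone (0.0259), with a correction for GC content (0.0452), and without Th1 replicate 1 (0.0419) or Tfh replicate 1 (0.0192). The same comparison passed in edgeR with a term for the replicate number (0.0418), and with that term and the GC correction (0.0334). With both, the comparison of Tfh with Th1 passed as well (0.0414). Ccr2, the CCL2 receptor that brings cells to inflamed sites, was at 2.71, 15.1, 7.84, 10.2 and 5.04 CPM in the Tfh libraries, 12.2, 19.4, 12.8, 7.63 and 8.89 in the Th17 libraries and 3.22, 2.03, 0.932, 1.75 and 0.341 in the Th1 libraries. Tfh libraries spread widely and overlapped with both other conditions, while all Th17 libraries lay above all Th1 libraries. Ccr2 was 5.17-fold higher in Tfh cells than in Th1 (log2 2.37 ± 0.50, adjusted p = 0.000656) and 7.67-fold higher in Th17 than in Th1 (log2 2.94 ± 0.50, adjusted p = 0.000132).

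Cxcr3, the receptor of CXCL9, CXCL10 and CXCL11 and a T-bet target known from Th1 cells, was highest in Th1. Its levels were 7.73, 0.989, 1.31, 3.98 and 3.75 CPM in the Tfh libraries, 4.45, 3.81, 5.098, 5.84 and 6.796 in the Th17 libraries and 10.8, 14.7, 29.6, 23.99 and 22.5 in the Th1 libraries. Every Th1 library was above every Tfh and Th17 library, and the Tfh and Th17 libraries overlapped. Cxcr3 was 5.93-fold lower in Tfh than in Th1 (log2 -2.57 ± 0.43, edgeR adjusted p = 6.67e-05) and 3.91-fold lower in Th17 than in Th1 (log2 -1.97 ± 0.41, adjusted p = 0.000882). Ccrl2, an atypical receptor that presents chemerin, averaged 0.758 ± 0.911 CPM in Tfh libraries, 1.66 ± 0.703 in Th17 libraries and 7.08 ± 2.06 in Th1 libraries. It was lower in Tfh than in Th1 (log2 -3.16 ± 0.69, adjusted p = 0.000892) and lower in Th17 than in Th1 (log2 -2.07 ± 0.63, adjusted p = 0.015). Its Tfh and Th17 libraries overlapped, and without Tfh replicate 3 the log2 fold change between Tfh and Th1 was -3.87. Ccr3, the eotaxin receptor best known from eosinophils, was highest in Th17, with 0.442 ± 0.456 CPM in Tfh libraries, 4.34 ± 1.66 in Th17 libraries and 0.637 ± 0.285 in Th1 libraries. Ccr3 was lower in Tfh than in Th17 (log2 -3.44 ± 0.76, adjusted p = 0.00394) and higher in Th17 than in Th1 (log2 2.77 ± 0.70, adjusted p = 0.00432), and its Th17 libraries, from 2.54 to 6.35 CPM, lay above all others. Xcr1, the receptor of XCL1, averaged 3.52 ± 1.59 CPM in Tfh libraries, 1.92 ± 1.14 in Th17 libraries and 0.205 ± 0.364 in Th1 libraries. Xcr1 was higher in Tfh than in Th1 (log2 4.41 ± 0.90, adjusted p = 0.00052) and higher in Th17 than in Th1 (log2 3.53 ± 0.90, adjusted p = 0.00446). These rest on 8 Th1 counts in 2 libraries, and without Th1 replicate 1 the log2 fold changes were 6.16 and 5.29. Ccr1, a receptor of CCL3, CCL5 and CCL9, averaged 2.08 ± 0.583 CPM in Tfh libraries, 2.79 ± 0.788 in Th17 libraries and 2.83 ± 0.867 in Th1 libraries and was not called in any of the 3 comparisons.

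**Figure D3:**
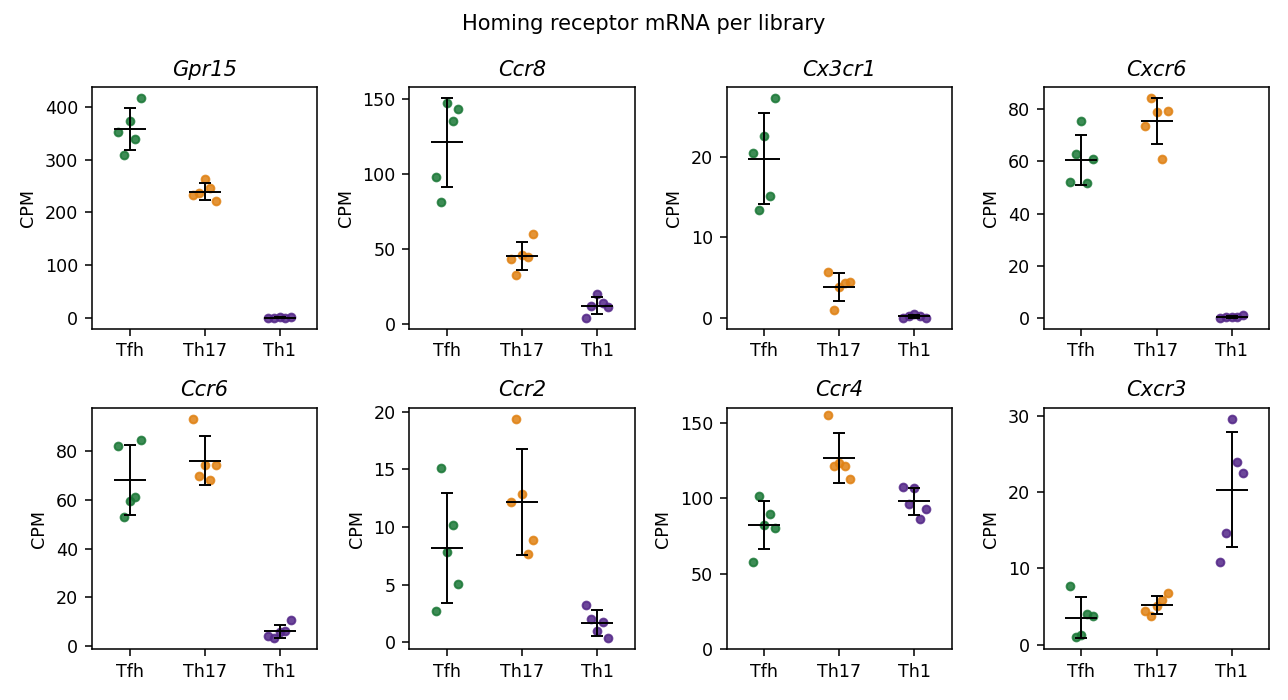
CPM of the main receptors in each library, with Tfh, Th17 and Th1 from left to right, a point for each library, and the mean and SD of the 5 libraries as bars. Gpr15, Ccr8 and Cx3cr1 are highest in Tfh, Cxcr6 and Ccr6 are high in Tfh and Th17, and Cxcr3 is highest in Th1.

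**Figure D4:**
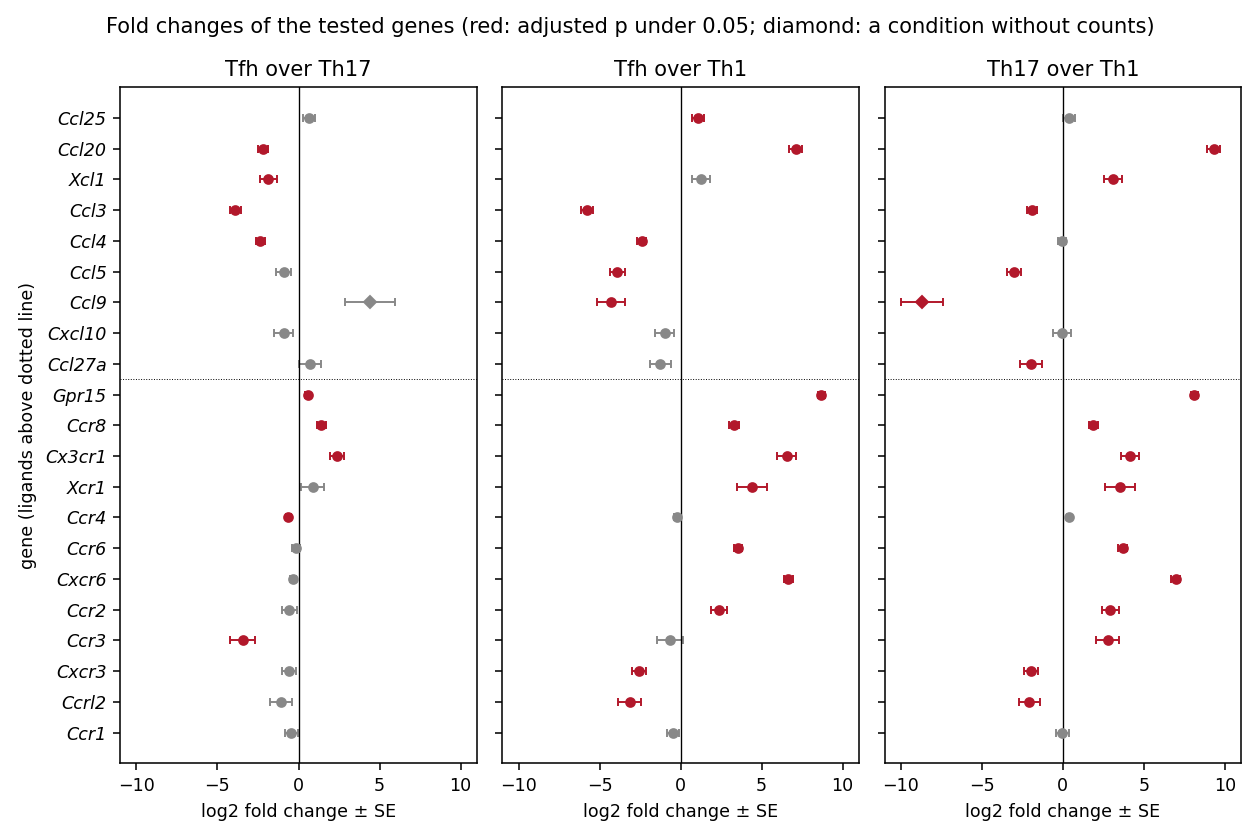
Log2 fold change of the tested genes, with its SE, in the comparisons of Tfh with Th17, Tfh with Th1 and Th17 with Th1 from left to right, with called values in red and diamonds for Ccl9 in the comparisons of Tfh with Th17 and of Th17 with Th1, where Th17 had no count and the value is fitted. The log2 fold changes against Th1 reach 8.68 for Gpr15 in Tfh and 9.30 for Ccl20 in Th17, while between Tfh and Th17 those of the called genes run from -3.89 for Ccl3 to 2.37 for Cx3cr1.

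Among the ligands removed by the filter, Cxcl11, an interferon-induced ligand of CXCR3, had no count in Tfh or Th17 and 125 counts in Th1. Its Th1 libraries were at 4.06, 2.03, 1.06, 0.8303 and 3.49 CPM, each above the zero of all Tfh and Th17 libraries. Against a floor of 3 counts over 5 libraries it was at least 29.2-fold lower in Tfh and at least 33.9-fold lower in Th17 than in Th1. The Cxcl11 allele of C57BL/6 mice is known to carry a frameshift, so the transcript gives no functional ligand. Cxcl16, the ligand of CXCR6, had 0 counts in Tfh, 1 in Th17 and 61 in Th1, and was at least 14.3-fold lower in Tfh than in Th1. The ratio of Th17 to Th1 for Cxcl16 was 0.0201, with a 95% counting interval of 0.000501 to 0.116, which covers counting error only. Cxcl16 shares 1571 exonic bases with Zmynd15 on the opposite strand. Cx3cl1, the fractalkine gene, had no count in Tfh or Th17 and 28 in Th1, so it was at least 6.55-fold lower in Tfh and at least 7.603-fold lower in Th17 than in Th1. With no filter on low counts, edgeR called Cxcl11 (adjusted p = 0.000322 and 0.000364), Cxcl16 (0.002 and 0.00752) and Cx3cl1 (0.0261 and 0.0285) lower in Tfh and in Th17 than in Th1. Ackr4, a scavenger of CCL19, CCL21 and CCL25, had 1, 6 and 33 counts in Tfh, Th17 and Th1 and was then called lower in Tfh than in Th1 (adjusted p = 0.0403). Both Cxcl10 and Cxcl11 lie within the body of Art3, and Ackr4 within that of Acad11. Exons of Cxcl10 and Art3 overlap on opposite strands, as do those of Ackr4 and Acad11.

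The rest of the low genes had too few counts for any ordering. Ccl22, a CCR4 ligand, had 14 counts, all in 2 Th1 libraries, and Ccl17, the other CCR4 ligand, had 1, 3 and 3 counts in Tfh, Th17 and Th1. Cxcl2 had 0, 14 and 6 counts and Cxcl3 0, 8 and 3 in that order, both being neutrophil attractants. Ccl6 had 1 count in all, in Th17. The receptors Ccr9, which homes to the small intestine, and Ccr10, which homes to skin, had 6 and 2 counts over the 15 libraries. Ackr2, a scavenger of inflammatory CC chemokines, had 6 counts, all in Th1, and Ackr3, a scavenger of CXCL12, had 2, both in Th17.

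To compare levels between genes, CPM was divided by the length of the exons in kilobases. The 20 ligands with a known length summed to 126 ± 24.6 CPM per kb in Tfh, 609 ± 133 in Th17 and 360 ± 87.5 in Th1. Ccl20 made up 64.8% of the ligand sum in Tfh and 61.4% in Th17, while Ccl3 and Ccl4 made up 49.0% and 44.0% in Th1. Without Ccl20 the ligand sums were 44.6 CPM per kb in Tfh, 235 in Th17 and 359 in Th1, so the order of Th17 and Th1 depended on that 1 gene. The 17 receptors summed to 418 ± 49.9 CPM per kb in Tfh, 306 ± 11.9 in Th17 and 61.4 ± 10.2 in Th1. Gpr15 made up 52.2% of the receptor sum in Tfh and 47.7% in Th17, Ccr8 24.6% in Tfh, and Ccr4 51.6% in Th1. Without Gpr15 the sums were 199.8 CPM per kb in Tfh, 160.3 in Th17 and 61.0 in Th1. On this scale the receptors in Tfh ran Gpr15 (218 CPM per kb), Ccr8 (103), Cxcr6 (31.3), Ccr6 (29.4) and Ccr4 (26.6), with the last 3 close together. In Th17 they ran Gpr15 (146), Ccr4 (41.0), Cxcr6 (39.0), Ccr8 (38.5) and Ccr6 (32.8), and in Th1 Ccr4 (31.7), Cxcr3 (11.7) and Ccr8 (10.3).

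**Figure D5:**
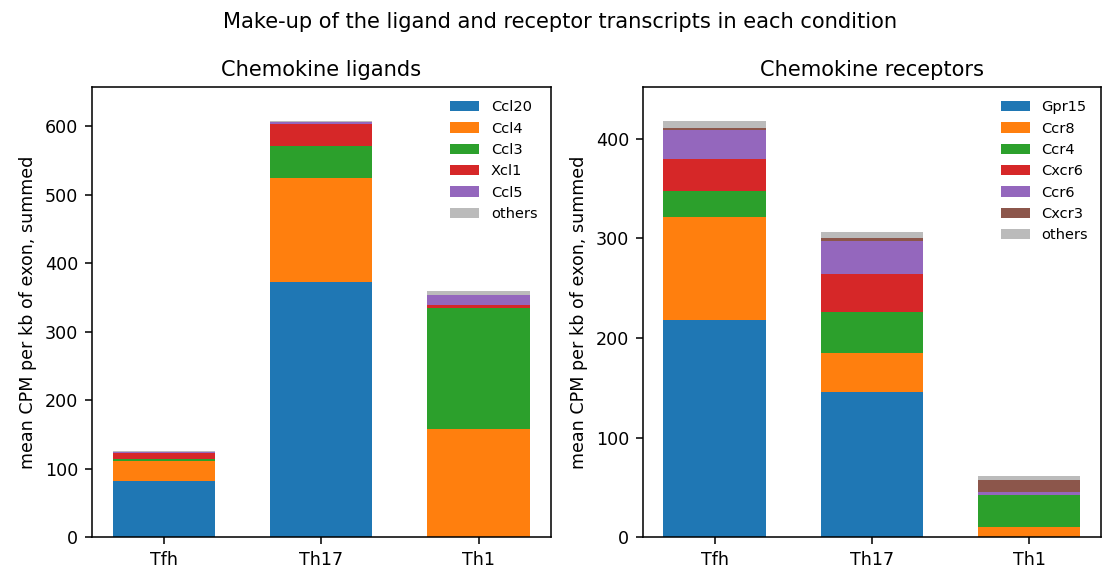
Summed ligand level and summed receptor level, in mean CPM per kb of exon, as stacked bars for Tfh, Th17 and Th1 from left to right. The main genes are drawn singly and the others pooled. Ccl20 takes most of the ligand sum in Tfh and Th17 and Ccl3 with Ccl4 most of it in Th1, and Gpr15 takes about as much as all other receptors in Tfh and Th17.

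Several members were measured together with their partners. Ccl20 and its receptor Ccr6 were both higher in Tfh and in Th17 than in Th1. Cxcr6 was higher in Tfh and in Th17 than in Th1, while the counts of its ligand Cxcl16 lay almost wholly in Th1 libraries. Cx3cr1 was highest in Tfh, and the 28 counts of its ligand Cx3cl1 were all in Th1. Ccr8 was high in Tfh with no count of its ligand Ccl1 in any library, and Ccr4 was high in all 3 conditions with at most 14 counts in a condition of its ligands Ccl17 or Ccl22. Xcl1 was highest in Th17, while its receptor Xcr1 averaged under 4 CPM in each condition.

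Many of the genes lie in clusters, and neighbours did not always share a pattern. On chromosome 9 of GRCm38.p6, from 123767211 to 124109140, Ccr9, Cxcr6, Xcr1, Ccr1, Ccr3 and Ccr2 lie within 342 kb. Cxcr6, Xcr1 and Ccr2 were higher in Tfh and Th17 than in Th1, Ccr3 was highest in Th17, Ccr1 was not called and Ccr9 was too low to test. On the same chromosome Cx3cr1 and Ccr8, from 120048683 to 120094906, were both highest in Tfh. On chromosome 11 Ccl5, Ccl9, Ccl6, Ccl3 and Ccl4 lie within 139 kb, from 83525778 to 83664683. Ccl5, Ccl9 and Ccl3 were highest in Th1, Ccl4 was lowest in Tfh and not called between Th17 and Th1, and Ccl6 had 1 count. Ccl22, Cx3cl1 and Ccl17 on chromosome 8, within 66.4 kb, were all too low to test, as were Cxcl9 and Cxcl11 beside Cxcl10 on chromosome 5.

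The chemotactic receptors outside the list give the setting of these values. Of 18 such receptors, 14 were tested: 2 were higher and 4 lower in Tfh than in Th17, 5 higher and 6 lower in Tfh than in Th1, and 5 higher and 5 lower in Th17 than in Th1. These are 42.9%, 78.6% and 71.4% of the 14, where 16.8%, 49.3% and 36.9% of all tested genes were called in these comparisons. Cxcr5, on whose protein the Tfh cells were sorted, averaged 169 CPM in Tfh libraries, 38.96 in Th17 libraries and 10.3 in Th1 libraries. Ccr7, the lymph node homing receptor, averaged 537 CPM in Tfh libraries, 541 in Th17 libraries and 496 in Th1 libraries and was not called. Cxcr4 averaged 121 CPM in Tfh libraries, 214 in Th17 libraries and 72.9 in Th1 libraries. Cxcr1 and Cxcr2, receptors known from neutrophils, averaged 1.57 CPM in Tfh libraries, 3.01 in Th17 libraries and 81.1 in Th1 libraries for Cxcr1 and 0.0198 CPM in Tfh libraries, 0.138 in Th17 libraries and 40.1 in Th1 libraries for Cxcr2. Cxcr1 was lower in Tfh than in Th1 (log2 -5.56 ± 0.47, adjusted p = 1.42e-08 in edgeR) and in Th17 than in Th1 (log2 -4.75 ± 0.44, adjusted p = 7.77e-08). In the same Th1 libraries the neutrophil gene S100a8 had no count, and which cells the Cxcr1 and Cxcr2 transcripts came from was not tested.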

How the data were processed

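The authors deposited raw read counts per gene, by Entrez ID, for 15 libraries. Alignment used STAR 2.7.2b and mm10 and counting featureCounts 1.6.4, per the submitters' processing notes. The sources used here do not give the annotation, strand setting or treatment of multi-mapping reads. The 15 single-sample files held the same counts as the series table. Symbols came from a RefSeq GRCm38.p6 table (25275 of 27179 IDs) and GENCODE (18), and 1886 stayed unnamed. Libraries were scaled by TMM, genes filtered by filterByExpr, and the 3 conditions fitted together by edgeR 4.0.16's robust quasi-likelihood test in R 4.3.3, after a check on simulated data. CPM uses TMM-scaled library sizes, and lengths are GENCODE M21 exon unions. No 2 libraries of a condition agreed within counting noise (lowest chi-square per gene 9.80). Alternatives were other scaling, no or a stricter filter, DESeq2 1.42.0, limma-voom 3.58.1, a replicate block, a GC correction, pairwise fits and leaving out each library. Full values are given for members called at least once with a mean of 10 CPM in a condition, and of other lists up to 3 called genes per direction and comparison with 10 CPM are named, beside Cxcr5, Ccr7, Cxcr4, Ifng and Il17a, and 1 further gene is not reported here. Members and lists were chosen with earlier results of these data known.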

Additional observations from a re-analysis of the deposited data

Results flagged for a closer look

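Of 62 groups of 5 libraries examined for a library that stands apart from its own condition by Dixon's test, 4 held one, and chance alone flags about 1 in 20 groups. In Tfh replicate 4 Ccl9 was at 0.995 CPM, where the other Tfh libraries were at 0 to 0.0817 CPM. In Th17 replicate 1 Ccr4 was at 155 CPM, where the other Th17 libraries were at 113 to 123 CPM. The same library had Ccr6 at 93.4 CPM, where the other Th17 libraries were at 68.3 to 74.6 CPM. In Th1 replicate 1 Xcr1 was at 0.841 CPM, where the other Th1 libraries were at 0 to 0.185 CPM.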

How the results depend on the processing

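Of 1572 values of the tested members under alternatives, 1525 kept their direction and their side of the threshold, 17 lost and 16 gained a call, and 14 reversed. The reversed values all compare Th17 with Th1 for genes not called there, and the cause was not tested. In the main fit these log2 fold changes were smaller than their SE: -0.07 ± 0.25 for Ccl4, -0.08 ± 0.55 for Cxcl10 and -0.03 ± 0.38 for Ccr1. For Ccl4 the log2 fold change ran from -0.21 to 0.11 with each library left out, and was 0.11 without Th1 replicate 3, 0.01 without Th1 replicate 4, 0.04 without Th17 replicate 1 and 0.02 without Th17 replicate 2. For Cxcl10 it ran from -0.26 to 0.05, with 0.0543 without Th1 replicate 1, 0.04 without Th1 replicate 5, 0.03 without Th17 replicate 1, 0.0651 with the replicate block and 0.0102 with the block and a GC correction. For Ccr1 it ran from -0.21 to 0.11, with 0.00285 without Th1 replicate 1, 0.11 without Th1 replicate 3, 0.09 without Th17 replicate 1, 0.0106 scaled by library size only and 0.0123 with the block. Without a filter on low counts 10 members were lower in Tfh than in Th1, where the filtered test called 6, because Cxcl11, Cxcl16, Cx3cl1 and Ackr4 were then tested. Over all genes, 2113 were called between Tfh and Th17, 3286 (26.1%) with the GC correction and 3878 (30.8%) with the block and the GC correction, which called 10 and 9 members. With each library left out in turn, 3 members were called higher and 5 to 6 lower in Tfh than in Th17 (8 to 9 in all), 8 to 10 higher and 6 to 7 lower in Tfh than in Th1 (14 to 17 in all), and 10 to 11 higher and 5 to 7 lower in Th17 than in Th1 (15 to 18 in all), while all genes called ranged over 1613 to 2393, 5727 to 6344 and 4096 to 5055. No label pairs same-numbered libraries. The correlations of their deviations ran from -0.10 to 0.57, and not every library correlated best with its own number. For replicate 4 they were 0.46 between Tfh and Th17, 0.44 between Tfh and Th1 and 0.57 between Th17 and Th1. Whether same-numbered libraries share a batch was not tested. The replicate block gave 2941, 6923 and 5487 calls over all genes and 9, 15 and 17 among members in the 3 comparisons. The block added a call for Xcl1 between Tfh and Th1 (edgeR adjusted p = 0.00728) and for Ccr4 between Th17 and Th1 (0.0418) and left Ccl25 between Tfh and Th1 uncalled (0.0510). Limma-voom gave larger changes for some low genes, such as -4.26 for Ccr3 between Tfh and Th17, and 5.16 for Xcr1 between Tfh and Th1. A level under 3 counts, 0.127 to 0.580 CPM by library, could not be told from 0 in a single library.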

Other observations

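Genes of chemokine receptor signalling were measured beside the receptors. Of 40 listed, 37 were tested: 8 were higher and 5 lower in Tfh than in Th17, 12 higher and 7 lower in Tfh than in Th1, and 11 higher and 8 lower in Th17 than in Th1. These are 35.1%, 51.4% and 51.4% of the 37, where 16.8%, 49.3% and 36.9% of all tested genes were called in these comparisons. Their median log2 fold changes were 0.09, 0.20 and 0.14, and those of all tested genes -0.01, -0.01 and 0.03. RGS proteins shorten G protein signals, and several moved in different directions. Rgs10 averaged 1459 CPM in Tfh libraries, 620.2 in Th17 libraries and 94.01 in Th1 libraries and was higher in Tfh than in Th1 (log2 3.95 ± 0.15, adjusted p = 2.2e-13 in edgeR). Rgs1 averaged 85.8 CPM in Tfh libraries, 188 in Th17 libraries and 360.4 in Th1 libraries and was lower in Tfh than in Th1 (log2 -2.07 ± 0.28, adjusted p = 7.37e-06 in edgeR). Rgs11 averaged 6.01 CPM in Tfh libraries, 19.04 in Th17 libraries and 34.8 in Th1 libraries, Rgs16 averaged 65.8 CPM in Tfh libraries, 121 in Th17 libraries and 46.1 in Th1 libraries, and Rgs3 averaged 24.9 CPM in Tfh libraries, 17.01 in Th17 libraries and 33.7 in Th1 libraries. Rgs2 averaged 27.1 CPM in Tfh libraries, 26.2 in Th17 libraries and 167 in Th1 libraries and was lower in Tfh than in Th1 (log2 -2.62 ± 0.24, adjusted p = 4.47e-08 in edgeR). Pik3cg, the PI3-kinase subunit activated by G proteins, averaged 115 CPM in Tfh libraries, 123 in Th17 libraries and 30.5 in Th1 libraries. Prex1 and Rac2, an exchange factor and its GTPase, averaged 96.1 CPM in Tfh libraries, 53.9 in Th17 libraries and 59.7 in Th1 libraries for Prex1 and 1897 CPM in Tfh libraries, 1494 in Th17 libraries and 3405 in Th1 libraries for Rac2, and Pik3r5, the Pik3cg adaptor, averaged 10.3 CPM in Tfh libraries, 14.1 in Th17 libraries and 32.6 in Th1 libraries. Rassf5, the RAPL adaptor that links Rap1 to integrins, averaged 485 CPM in Tfh libraries, 362 in Th17 libraries and 147 in Th1 libraries.

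Gpr183, the EBI2 receptor that guides cells in lymphoid tissue, averaged 53.9 CPM in Tfh libraries, 131 in Th17 libraries and 203 in Th1 libraries and was lower in Tfh than in Th1 (log2 -1.91 ± 0.17, adjusted p = 3.01e-08 in edgeR). Ltb4r1, a leukotriene receptor, averaged 36.1 CPM in Tfh libraries, 68.2 in Th17 libraries and 14.8 in Th1 libraries and was higher in Th17 than in Th1 (log2 2.19 ± 0.26, adjusted p = 2.35e-06 in edgeR). The prostaglandin receptor Ptger4 averaged 78.5 CPM in Tfh libraries, 66.3 in Th17 libraries and 166 in Th1 libraries, and the sphingosine phosphate receptors S1pr1 and S1pr4 averaged 153 CPM in Tfh libraries, 113 in Th17 libraries and 253 in Th1 libraries and 48.3 CPM in Tfh libraries, 43.9 in Th17 libraries and 23.3 in Th1 libraries in that order. S1pr2 and Ptger2 were tested and not called in any of the 3 comparisons, and Ptgdr2 had no count. Of the cytokine genes on which the sorts acted, Ifng averaged 0.341 CPM in Tfh libraries, 0.510 in Th17 libraries and 839.9 in Th1 libraries and Il17a 15.1 CPM in Tfh libraries, 225 in Th17 libraries and 0.0595 in Th1 libraries.

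Of 10 genes that build or cut the glycans and proteins chemokines bind, all were tested: 1 was higher and 2 lower in Tfh than in Th17, 4 higher and 2 lower in Tfh than in Th1, and 5 higher and 0 lower in Th17 than in Th1. These are 30%, 60% and 50% of the 10, where 16.8%, 49.3% and 36.9% of all tested genes were called in these comparisons, and their median log2 fold changes were 0.15, 0.15 and 0.37. Ext1, which polymerises heparan sulfate, averaged 282 CPM in Tfh libraries, 166 in Th17 libraries and 23.9 in Th1 libraries and was higher in Tfh than in Th1 (log2 3.56 ± 0.14, adjusted p = 5.09e-13 in edgeR). Sdc4, a syndecan that carries heparan sulfate, averaged 2.08 CPM in Tfh libraries, 22.6 in Th17 libraries and 35.1 in Th1 libraries and was lower in Tfh than in Th17 (log2 -3.36 ± 0.39, adjusted p = 9.77e-06 in edgeR). Ndst1, which modifies heparan sulfate, averaged 81.2 CPM in Tfh libraries, 107 in Th17 libraries and 32.2 in Th1 libraries, and Sdc1, another syndecan, 26.99 CPM in Tfh libraries, 20.4 in Th17 libraries and 8.08 in Th1 libraries. Tpst1, which sulfates the tyrosines of chemokine receptors, averaged 14.5 CPM in Tfh libraries, 36.4 in Th17 libraries and 24.7 in Th1 libraries. Of 18 further ligands outside the list, 13 had no count in any library, 4 were too low to test, and Mif was tested. Mif, which can signal through CXCR2 and CXCR4, averaged 94.3 CPM in Tfh libraries, 232 in Th17 libraries and 324 in Th1 libraries and was lower in Tfh than in Th17 (log2 -1.30 ± 0.23, adjusted p = 0.000641 in edgeR) and than in Th1 (log2 -1.78 ± 0.23, adjusted p = 4.07e-06).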
